A study of Mus musculus with 8 samples.

Results

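The 250 nuclei described here are GABAergic nuclei with Pvalb RNA from 6-month mouse brain hemispheres, gated as parvalbumin interneurons and picked from 61949 nuclei of which 45141 carried the authors' neuron label. A nucleus was taken when its raw unique molecular identifiers (UMIs, each the tag of 1 captured RNA molecule) summed to at least 2 over Gad1 and Gad2, to at least 2 for Pvalb, and to at most 1 for each of Slc17a7, Rgs9, Sst and Vip. Gad1 and Gad2 make the transmitter GABA, Slc17a7 loads glutamate into vesicles and marks excitatory neurons, Rgs9 marks striatal projection neurons, and Sst and Vip mark the other large interneuron classes. Without the requirements on Pvalb, Sst and Vip, 8197 nuclei passed as GABAergic, and the 250 nuclei were 3.05% of them and 0.554% of all neurons. Because these genes chose the nuclei, their levels in the gated classes are given only as a description, and no test between classes includes them.

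Parvalbumin is a calcium-binding protein of fast-spiking inhibitory neurons, the basket and chandelier cells that synapse on the cell body, proximal dendrites and axon initial segment of their targets. In the forebrain these cells arise in the medial ganglionic eminence (MGE) under the transcription factors Lhx6 and Sox6, fire briefly and at high rates through Kv3 potassium channels, release GABA through the fast calcium sensor Syt2, and carry many mitochondria. Their axons are among the myelinated inhibitory axons of the cortex, and parvalbumin neurons also occur outside the forebrain, including interneurons and Purkinje cells of the cerebellum.

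The nuclei came from 8 single-nucleus RNA libraries of C57BL6/J mice aged 6 months, 2 for each of WT, Cnp-/-, 5xFAD and Cnp-/- 5xFAD. Cnp-/- mice lack the myelin protein CNP in every cell, and 5xFAD mice carry transgenes, mutant human APP among them, driven by the neuronal Thy1 promoter, so the Cnp-/- 5xFAD group has both the null allele and the transgenes. Per the study's methods the cerebellum and olfactory bulb had been removed from the hemispheres. The methods speak of both sexes over the whole study, and the reporting summary of females only for the Cnp-/- crossbreedings. The reporting summary mentions a pool of 2 animals per replicate for single-cell analysis without naming the data set. The methods state such pooling for the study's other single-nucleus data set and do not mention it for this one. It is thus not settled whether these libraries are pools, and the p-values below measure the spread between libraries, which may be technical. Library sizes ranged from 68905044 to 82399061 UMIs, and the 250 nuclei held 3346468 UMIs, 209010 to 1469105 per library, with a median of 11008.5 UMIs per nucleus. None of these nuclei shared a cell barcode with another of them in a different library.

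Before the results it has to be said that the library of WT replicate 2 stood apart. It gave 101 of the 250 nuclei, and the other libraries gave 15 (WT 1), 20 and 22 (Cnp-/-), 18 and 19 (5xFAD), and 26 and 29 (Cnp-/- 5xFAD). Summed over all neurons, 3 genes of cerebellar granule cells (Gabra6, Fat2 and Cbln3, picked after their values were seen) reached 80.7 UMIs per 1000000 UMIs (CPM) in WT 2 and at 0.499 to 1.80 CPM in the other 7 libraries. The total counts of genes called and most genotype results below are therefore also given without it or for the nuclei of cluster 8 alone, the cluster described next. Most counts by gene list are given over all 250 nuclei only.

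The check of the targeted gene went with the labels. In mature oligodendrocytes, the cells that make most Cnp RNA, Cnp (mm10 chr11:100574904-100591729) reached 283 and 321 CPM in the WT libraries and 219 and 265 CPM in those of 5xFAD mice. Cnp-/- libraries had 23.1 and 23.2 CPM and Cnp-/- 5xFAD libraries no more than 32.8 CPM, below every library with an intact gene. In the parvalbumin nuclei themselves Cnp was near the floor, with 50 UMIs over all 250, and was too low to be tested.

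**Figure D1:**
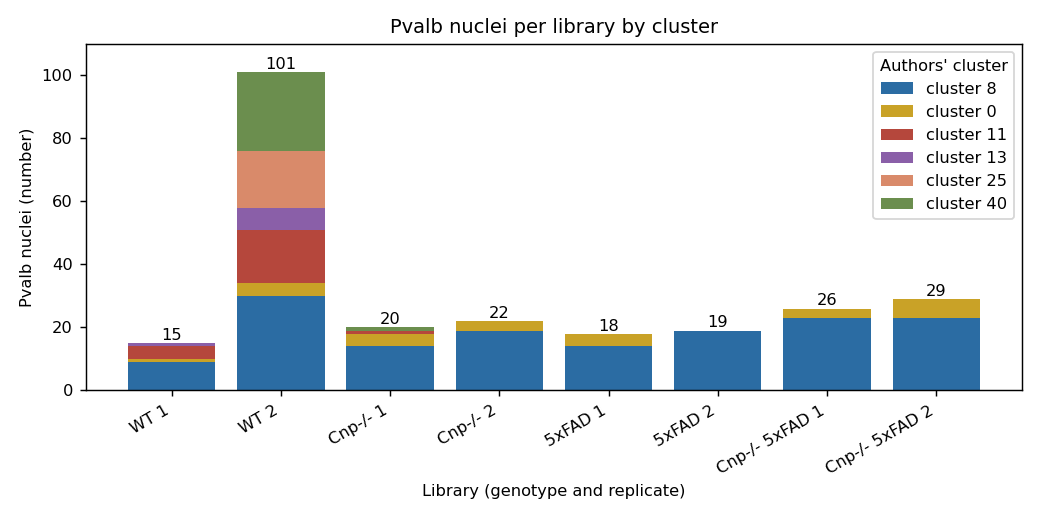
Number of Pvalb nuclei (y axis) in each of the 8 libraries (x axis), stacked by the authors' cluster of all nuclei. Cluster 8 holds 9 to 30 nuclei in every library, whereas clusters 25 and 40 are almost wholly from WT 2, which has 101 nuclei in all.

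The parvalbumin nuclei were of several kinds. The deposited clustering, made by the authors from the expression of all nuclei, put 151 of them (60.4%) in cluster 8, 25 in cluster 0, 22 in cluster 11, 8 in cluster 13, 18 in cluster 25 and 26 in cluster 40. Cluster 8 was present in every library, with 9 and 30 nuclei in WT, 14 and 19 in Cnp-/-, 14 and 19 in 5xFAD, and 23 and 23 in Cnp-/- 5xFAD. Of the 99 nuclei outside it, 71 came from WT 2, among them all 18 of cluster 25 and 25 of the 26 of cluster 40. Clusters 11, 13, 25 and 40 together gave 5 nuclei in WT 1, 67 in WT 2, 2 in Cnp-/- 1 and 0 in every other library. Every library with the 5xFAD transgenes thus had 0 of them.

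The MGE genes followed this division. At least 1 UMI of Lhx6, the transcription factor that specifies MGE interneurons, was found in 71 of the 151 nuclei of cluster 8 (47.0%), in 13 of the 25 of cluster 0, in none of clusters 11, 13 and 25, and in 1 of the 26 of cluster 40. In the summed profile of each cluster Lhx6 stood at 55.8 CPM in cluster 8, at 32.3 CPM in cluster 0, at 6.63 CPM in cluster 40 and at 0 in the other 3. Sox6, which acts downstream of Lhx6, was at 906 CPM in cluster 8, 390 CPM in cluster 0 and 13.3 to 299 CPM in the rest. The potassium channel gene Kcnc1, which gives Kv3.1, was at 436 CPM in cluster 8, 247 CPM in cluster 0 and 91.5 to 199 CPM elsewhere. The neurexophilin gene Nxph1 did not divide them in this way, with 2234 CPM in cluster 8 but also 1997 CPM in cluster 40 and 1360 CPM in cluster 11.

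Pvalb itself was not highest in cluster 8. It stood at 210 CPM there, at 114 to 191 CPM in clusters 0, 11, 13 and 25, and at 531 CPM in cluster 40. Cluster 40 also led in Kit, a receptor tyrosine kinase (743 CPM against 11.3 CPM in cluster 8), and in the transcription factor gene Tfap2b (365 CPM against 2.25 CPM). Kit and Tfap2b are known from molecular layer interneurons of the cerebellum, and a list of 5 such genes, again picked after their values were seen, summed to 703 CPM in the WT 2 nuclei and to 57.4 to 170 CPM in the other libraries.

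The remaining clusters are described here by their leading genes. Cluster 11 was led by Adarb2 (3417 CPM), an RNA-editing-related gene of interneurons from the caudal ganglionic eminence, and by Zfhx3. Cluster 0 nuclei were the deepest, with a median of 21277 UMIs, and were led by Tafa1 (899 CPM against 11.8 CPM in cluster 8) and Arpp21 (970 CPM against 44.5 CPM), both abundant in excitatory neurons. Among the leading genes of clusters 13 and 25 were Ptgds and Apoe, which are abundant in glia and meninges, and in cluster 25 also the oligodendrocyte gene Mobp and Unc13c, a release factor of cerebellar granule cells. MGE markers thus went with the name parvalbumin interneuron in cluster 8, while the nuclei of clusters 11, 13, 25 and 40 lacked Lhx6 save 1 and are called here by their cluster only.

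**Figure D2:**
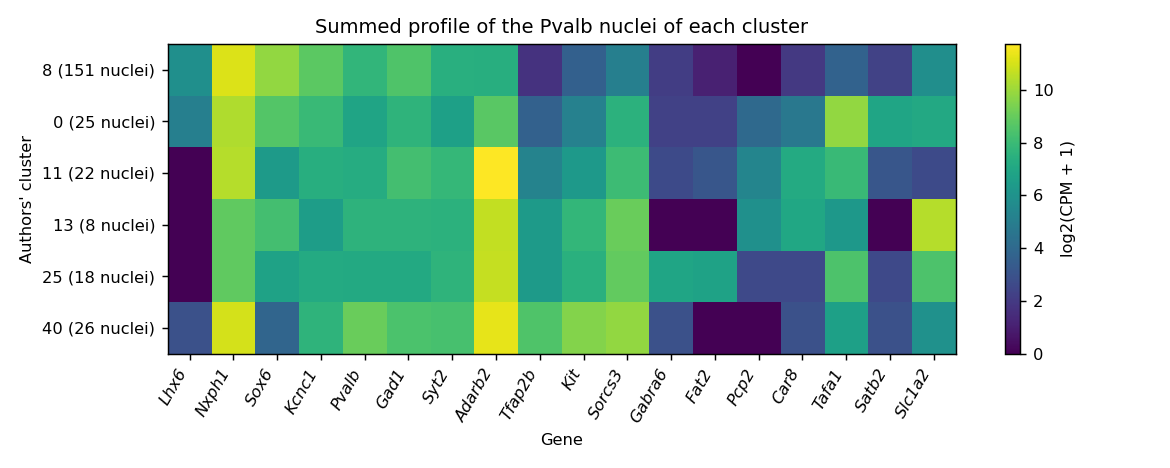
Summed profile of the Pvalb nuclei of each cluster (rows, with the number of nuclei) over 18 genes (columns), coloured by log2(CPM + 1). Lhx6, Sox6 and Kcnc1 are brightest in clusters 8 and 0, and Kit and Tfap2b in cluster 40.

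RNA of other cell types in these nuclei also differed between libraries, and its part in the results was not tested. A list of 10 oligodendrocyte genes summed to between 53.2 CPM (Cnp-/- 5xFAD 2) and 772 CPM (WT 2), and a list of 10 astrocyte genes to between 363 CPM (5xFAD 1) and 1472 CPM (WT 2). In the WT 2 nuclei of cluster 8 alone the oligodendrocyte list was at 52.7 CPM and the astrocyte list at 326 CPM. The granule cell genes summed to 83.7 CPM in the WT 2 nuclei, to 4.47 CPM in those of WT 1 from 1 UMI, and to 0 in the other 6 libraries.

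Just below the threshold of 2 Pvalb UMIs lay 431 GABAergic nuclei within the Sst and Vip limits and with 1 Pvalb UMI, and just above it 157 members with 2. Cluster 8 held 56.6% of the former and 65.0% of the latter. Syt2 stood at 146 CPM below and 181 CPM above, Kcnc1 at 281 and 335 CPM, and Nxph1 at 1734 and 1762 CPM. The nuclei with 1 Pvalb UMI were thus close to those with 2. A further 6849 nuclei within these limits had 0 Pvalb UMIs, with Syt2 at 23.5 CPM and Kcnc1 at 136 CPM. Of these 1112 (16.2%) lay in cluster 8, and how many were parvalbumin cells was not tested. The shares given for Pvalb nuclei thus depend on detection of Pvalb. Among the members 59 had 3 Pvalb UMIs, 24 had 4, and 10 was the highest number. In excitatory neurons, which should lack the gene, at least 2 Pvalb UMIs were found in 11 of 16584 nuclei (0.0663%, median 11205 UMIs), compared with 258 of all 8197 GABAergic nuclei, whatever their Sst and Vip UMIs (3.15%, median 6823 UMIs).

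What sets these nuclei apart from the other interneurons was asked by comparing them with 252 Sst and 404 Vip nuclei of the same libraries, gated the same way on Sst or Vip. In each library the UMIs of a class were summed, and edgeR's quasi-likelihood test compared the classes within libraries, with p-values adjusted by the Benjamini-Hochberg method over all genes tested and 0.05 as the threshold. Median UMIs per nucleus ranged from 8452 to 12374 in Sst nuclei and from 6317 to 8305 in Vip nuclei. The Sst profiles were uneven, with 5 nuclei in Cnp-/- 5xFAD 1 (67354 UMIs), 8 in Cnp-/- 2 (69005 UMIs) and 89 in WT 2. In the smallest of them a few UMIs move the CPM, and 0 CPM says little. Vip profiles held 27 to 65 nuclei. Summed profiles cannot tell fewer cells with a gene from less RNA of it per cell. The authors' clusters were built from all genes, so the comparison of cluster 8 nuclei with Vip nuclei, which lie almost wholly in other clusters, is not independent of that clustering, whereas most Sst nuclei share cluster 8 with the Pvalb nuclei and were parted from them by the gate.

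Against Sst nuclei the Pvalb nuclei had more RNA of most fast-spiking and energy genes tested and of the release genes Syt2 and Cplx1. They had less of most MGE genes tested and of somatostatin-cell genes. Of 4975 genes tested, 953 (19.2%) passed, 481 higher (9.67%) and 472 lower (9.49%) in Pvalb nuclei. Within cluster 8 the test called 1109 of 4064 genes (27.3%), 567 higher (14%) and 542 lower (13.3%), and 816 of them were among the 953. Without WT 2 it called 916, of which 800 were among the 953. The median log2 fold change over all genes was 0.01.

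Syt2 (chr1:134646677-134762593), the calcium sensor for fast synchronous release, had the largest rise against Sst nuclei among the genes that were higher in every library. It did not follow the division by Lhx6, with 169 CPM in the Pvalb nuclei of cluster 8, 101 CPM in cluster 0 and 183 to 318 CPM in clusters 11, 13, 25 and 40. It ranged from 119 to 242 CPM in the 8 Pvalb profiles with a median of 154 CPM, from 0 to 29.9 CPM in Sst profiles (median 4.30) and from 0 to 35.1 CPM in Vip profiles (median 8.84), so that no Pvalb library overlapped either class. Its log2 fold change was 3.85 ± 0.29 (SE) against Sst nuclei (edgeR quasi-likelihood test, Benjamini-Hochberg adjusted p = 8.14e-08) and 3.65 ± 0.30 against Vip nuclei (adjusted p = 5.47e-08).

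**Figure D3:**
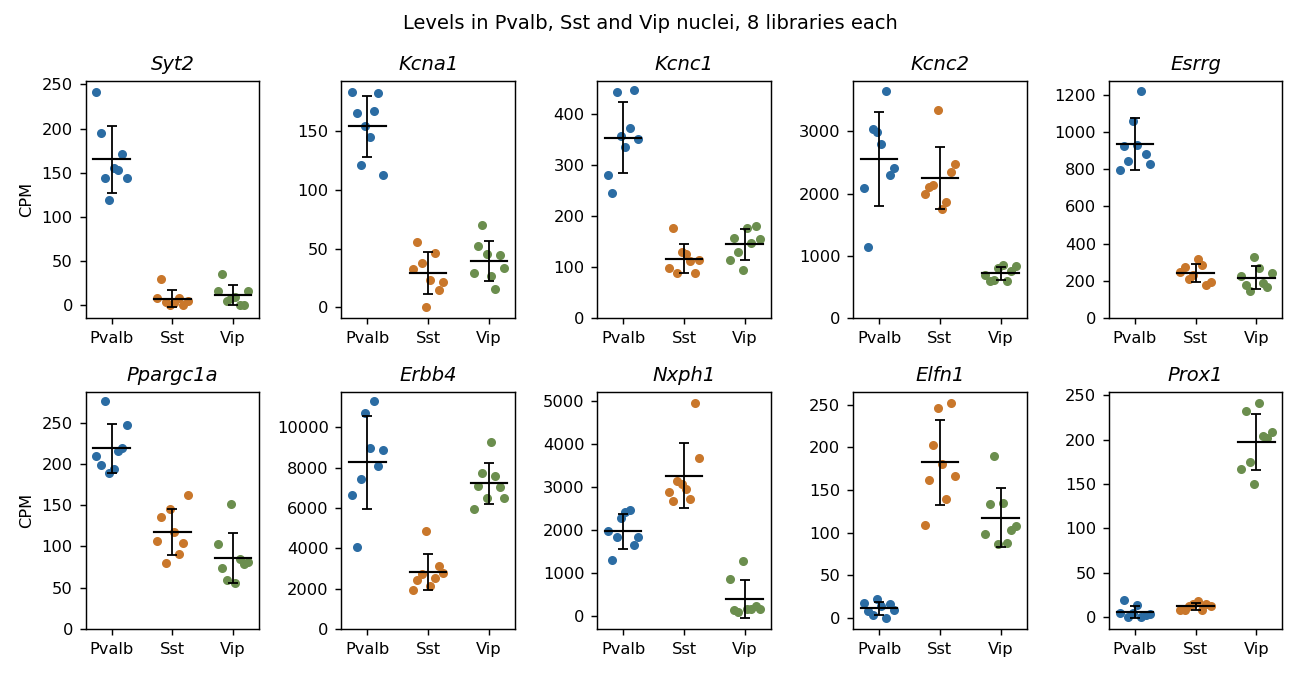
Levels in CPM (y axes) of 10 genes in the summed Pvalb, Sst and Vip nuclei of the 8 libraries (points), with the mean (line) and SD (error bar). Syt2, Kcna1, Kcnc1, Esrrg and Ppargc1a are higher in every Pvalb library than in any Sst or Vip library, Nxph1 lies between the other classes, and Elfn1 is lowest in Pvalb nuclei.

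Most of the fast-spiking channels were higher in Pvalb nuclei. Of the 12 genes on that list 11 could be tested, and 8 were higher against Sst nuclei and none lower, with a median log2 fold change of 0.82, beside 9.67% higher and 9.49% lower over all genes. Against Vip nuclei, where 15.5% of all genes were higher and 14.7% lower, all 11 were higher, with a median of 1.22. Kcna1, the axonal Kv1.1 channel, ranged from 113 to 183 CPM in Pvalb profiles (median 160), 0 to 56.0 CPM in Sst profiles (median 28.0) and no more than 69.9 CPM in Vip profiles (median 38.9). Its log2 fold changes were 2.08 ± 0.20 and 1.93 ± 0.18. Kcnc1 (chr7:46396497-46438704) ranged from 246 to 447 CPM against 88.6 to 178 CPM in Sst and 95.1 to 181 CPM in Vip profiles. For both genes the Pvalb libraries lay above all others.

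Members of the Kv3 family differed in how far they parted the classes. Kcnc1 was higher by 1.45 ± 0.17 against Sst nuclei and by 1.22 ± 0.13 against Vip nuclei on the log2 scale. Kcnc2, the Kv3.2 gene, had a log2 fold change of 0.11 ± 0.17 against Sst nuclei (edgeR adjusted p = 0.764), where it did not pass, but of 1.73 ± 0.15 against Vip nuclei. Kcns3, a silent subunit that modifies Kv2 channels, had the same pattern, at 0.36 ± 0.21 (adjusted p = 0.292) and 2.69 ± 0.28. The sodium channel genes Scn1a and Scn8a passed in both comparisons, Scn1a at 0.62 and 0.60 and Scn8a at 0.57 and 0.73.

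In the release group 2 of 5 tested genes were higher against Sst nuclei (median 0.10) and 3 of 5 against Vip nuclei (median 0.99), beside 9.67% and 15.5% of all genes. Cplx1, a complexin that clamps and then speeds fusion, was higher by 0.74 ± 0.17 and 1.44 ± 0.15. Cacna1a, the P/Q-type calcium channel of fast terminals, passed against Vip nuclei only (0.99 ± 0.09), and its value against Sst nuclei was 0.11 ± 0.10. Snap25, a fusion protein of all neurons, was at -0.11 ± 0.12 and 0.08 ± 0.11 and passed in neither.

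Regulators of energy metabolism were higher too, with 4 of 6 tested genes against Sst nuclei (median 0.69) and 5 of 7 against Vip nuclei (median 0.79), beside 9.67% and 15.5% of all genes, and none was lower. Esrrg (chr1:187608791-188214885), a nuclear receptor that drives mitochondrial genes, ranged from 796 to 1220 CPM in Pvalb profiles (median 902), against 178 to 317 CPM in Sst and 145 to 329 CPM in Vip profiles. Its log2 fold changes were 1.88 ± 0.11 (edgeR adjusted p = 1.06e-08) and 2.07 ± 0.13 (adjusted p = 2.39e-09). Ppargc1a, its coactivator PGC-1alpha, ranged from 190 to 277 CPM in Pvalb profiles, 80.2 to 162 CPM in Sst and 55.1 to 151 CPM in Vip profiles, again without overlap, with log2 fold changes of 0.85 ± 0.14 and 1.32 ± 0.15. Ldhb, the lactate dehydrogenase subunit that favours pyruvate, was higher by 0.90 and 1.00.

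**Figure D4:**
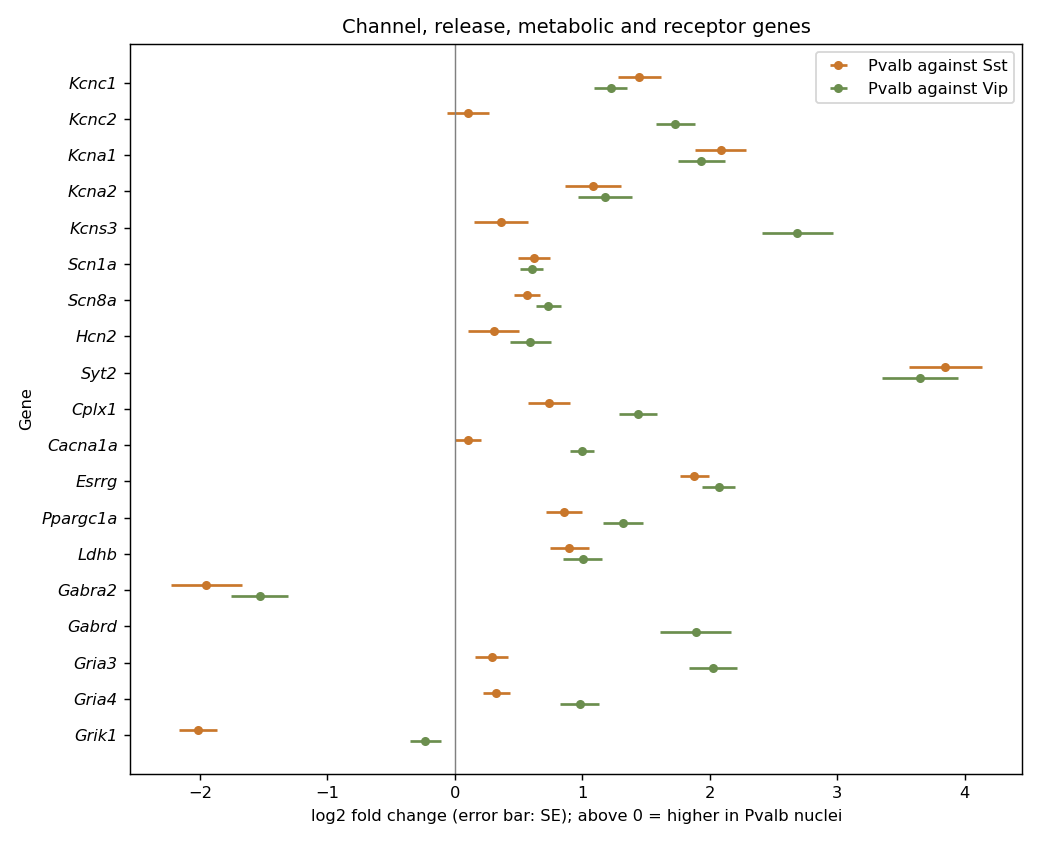
Log2 fold change (x axis, error bars SE) of 19 channel, release, metabolic and receptor genes (y axis) in Pvalb against Sst nuclei and Pvalb against Vip nuclei, with values above 0 higher in Pvalb nuclei. Syt2, Esrrg and Kcna1 lie far to the right in both comparisons, Kcnc2 and Gria3 do so against Vip nuclei only, and Gabra2 lies to the left in both.

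Receptor genes moved in both directions. Among the GABA-A receptor subunits 5 of 9 tested were higher and 3 lower against Sst nuclei, and 3 of 11 were higher and 3 lower against Vip nuclei, beside 9.67% higher and 9.49% lower over all genes in the former comparison and 15.5% and 14.7% in the latter. Gabrb2, a beta subunit of synaptic receptors, was higher by 0.68 against Sst nuclei and was at 0.09 against Vip nuclei, where it did not pass. Gabra2 was lower in both, by -1.95 ± 0.28 and -1.53 ± 0.22. Gabrd, the delta subunit of extrasynaptic receptors, was at 35.8 to 87.7 CPM in Pvalb profiles, at most 16.4 CPM in Sst and at most 33.0 CPM in Vip profiles. It passed against Vip nuclei (1.89 ± 0.28) and was too low in Sst nuclei to enter that test.

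Glutamate receptor genes moved in both directions as well. Against Sst nuclei 1 of 11 tested genes was higher and 4 were lower (median -0.23), among them the kainate receptor Grik1 (-2.02 ± 0.15). Over all genes 9.67% were higher and 9.49% lower in that comparison. Against Vip nuclei, with 15.5% higher and 14.7% lower over all genes, 5 were higher and 3 lower (median 0.12), led by Gria3 (2.03 ± 0.19). The AMPA subunit Gria1 and the NMDA subunit Grin2a passed in opposite directions, at -0.93 and -0.67 against Sst nuclei and at 0.72 and 0.47 against Vip nuclei. Gria4, the fast AMPA subunit, was higher in both, at 0.32 ± 0.10 and 0.98 ± 0.15.

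Erbb4, the neuregulin receptor, was higher against Sst nuclei (1.51 ± 0.15) and at 0.12 ± 0.15 against Vip nuclei. Of the perineuronal net, the matrix that wraps these cells, the proteoglycan Bcan was higher by 2.16 ± 0.20 and 1.45 ± 0.19. Tnr, which links net components, was at 0.19 ± 0.13 against Sst nuclei and higher against Vip nuclei (0.69 ± 0.18), while the proteoglycans Ncan (-0.89 ± 0.30) and Ptprz1 (-2.40 ± 0.27) were lower against Vip nuclei. Acan, the net's aggrecan core, was found at 47 UMIs in the 250 Pvalb nuclei, at 0 in Sst nuclei and at 2 in Vip nuclei, and was too sparse to be tested. Pvalb profiles had 4.47 to 30.9 CPM of it, above every other profile. These levels are near the floor, and in the smallest Sst profiles, of 67354 and 69005 UMIs, 0 CPM says little.

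Lineage genes differed as well. Of 6 MGE genes tested against Sst nuclei none was higher and 4 were lower (median -0.72), beside 9.67% higher and 9.49% lower over all genes. Among the 4 were Lhx6 (-1.15 ± 0.23), Nxph1 (-0.76 ± 0.15) and Satb1 (-0.85 ± 0.15). The 250 nuclei include the 99 outside cluster 8, most of them in clusters with Lhx6 in 1 nucleus only, and in cluster 8 alone 4 of 6 were again lower (median -0.63). Lhx6 ranged from 18.9 to 88.2 CPM in Pvalb profiles, 44.5 to 116 CPM in Sst profiles and 0 to 10.6 CPM in Vip profiles. Against Vip nuclei, with 15.5% higher and 14.7% lower over all genes, 3 of 6 MGE genes were higher and 2 lower (median 0.87). Sox6, Nxph1 and Satb1 were higher, by 3.13 ± 0.15, 2.86 ± 0.33 and 1.88 ± 0.17, while Dlx1 (-2.67 ± 0.33) and Dlx6os1 (-2.46 ± 0.13) were lower and Maf was at -0.13 ± 0.17. All 4 tested genes of the caudal eminence were lower in that comparison, beside the 14.7% lower over all genes, Prox1 by -4.49 ± 0.26 and Adarb2 by -5.15 ± 0.55. When only Pvalb nuclei with an Lhx6 UMI and with no midbrain or hindbrain gene were kept, a choice that uses Lhx6 itself, its value against Sst nuclei turned to 0.32.

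The genes lower in Pvalb than in Sst nuclei by the widest margins included Elfn1 (chr5:139907943-139974722), which recruits glutamate receptors to excitatory inputs of somatostatin cells, at -4.06 ± 0.23. It was at 0 to 22.1 CPM in Pvalb profiles, 109 to 252 CPM in Sst profiles and 86.3 to 190 CPM in Vip profiles. Grin3a, an NMDA subunit, was lower by -3.88 ± 0.24, Npas1 by -4.06 ± 0.41 and Synpr, a vesicle protein, by -3.59 ± 0.29. Reln, the secreted matrix protein reelin, was lower by -3.32 ± 0.25 against Sst nuclei and by -0.93 ± 0.26 against Vip nuclei. The others of the 10 widest were Gm28175, 4930509J09Rik, Gm20754, Shisa6, Arhgap6 and Gm5087, at -3.60 to -4.10.

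The genes higher than in Sst nuclei by the widest margins were, after Syt2, Pde5a (3.55 ± 0.25), Cemip (3.25 ± 0.19), 6330411D24Rik, Myo1e, Tll1 (2.86 ± 0.31), Sox5os4, Tmem108, Rbm20 and Lrmda. Cemip, which binds and degrades hyaluronan, was at 260 to 759 CPM in Pvalb profiles and at most 107 CPM in any other, and was higher against Vip nuclei by 4.18 ± 0.19. Pde5a, the phosphodiesterase that degrades cyclic GMP, was at 79.6 to 220 CPM in Pvalb profiles and at most 17.5 CPM in Sst profiles, but at 132 to 194 CPM in Vip profiles, which the Pvalb profiles overlapped.

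Against Vip nuclei 1740 of 5777 genes passed (30.1%), 893 higher (15.5%) and 847 lower (14.7%), with a median of 0.01 over all genes. With Pvalb nuclei of cluster 8 alone the test called 1868 of 4799 (38.9%), 913 higher (19%) and 955 lower (19.9%), sharing 1505 with the 1740. Without WT 2 it called 1699, of which 1523 were shared. The 10 highest were Mypn (4.82 ± 0.28), Cemip, Gm26633, Eya4 (3.79 ± 0.24), Iqgap2, Syt2, Tmem132c, 6330411D24Rik, the axon guidance gene Slit2 (3.21 ± 0.16) and Sox6. Tac2, the tachykinin neuropeptide precursor, was lowest at -6.63 ± 0.38, followed by Adarb2, Npas1, Gm5087, Prox1, Igf1 (-4.36 ± 0.25), Egfr, Fbln2, Synpr and Sema3c. Oligodendrocyte genes were lower in Pvalb than in Vip nuclei as well, 4 of 5 tested with a median of -1.24, and 5 of 5 with a median of -1.96 in cluster 8.

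Whether loss of Cnp or the 5xFAD transgenes changed these nuclei was asked over the 8 libraries. As a share of all neurons the Pvalb nuclei were 0.245% and 1.82% in WT, 0.339% and 0.322% in Cnp-/-, 0.403% and 0.370% in 5xFAD, and 0.525% and 0.469% in Cnp-/- 5xFAD. WT 2 was above all other libraries and WT 1 below them. With cluster 8 alone the shares were 0.147% and 0.541%, 0.237% and 0.278%, 0.314% and 0.370%, and 0.464% and 0.372%, so WT 2 was still the highest and WT 1 the lowest. When every nucleus was thinned to 5000 UMIs and shallower ones left out, 3 to 26 Pvalb nuclei per library remained, at 0.160% and 0.527% of neurons in WT and 0.0720% to 0.184% in the rest.

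Over all 8 libraries neither genotype moved these shares beyond the spread between libraries, and the direction of the differences rested on WT 2. The 4 libraries without Cnp had 0.414% ± 0.0992 (SD, n = 4) and the 4 with it 0.710% ± 0.744 (two-sided exact permutation test, p = 0.857, adjusted p = 1 over 8 comparisons). With and without 5xFAD the shares were 0.442% ± 0.0692 and 0.682% ± 0.761 (exact permutation p = 1). As a share of GABAergic nuclei they were 0.725% and 11.4% in WT, 2.86% and 1.15% in Cnp-/-, 2.65% and 2.45% in 5xFAD, and 4.26% and 5.05% in Cnp-/- 5xFAD (exact permutation p = 0.914 for Cnp loss and 0.943 for 5xFAD). GABAergic nuclei numbered 2068 in WT 1 and 1908 in Cnp-/- 2, where this share was lowest, and 574 to 884 in every other library. Without WT 2 the differences in the share of neurons turned from -0.296 to 0.0745 percentage points for Cnp loss (exact permutation p = 0.314) and from -0.240 to 0.140 for 5xFAD (exact permutation p = 0.0571), and those in the share of GABAergic nuclei to 1.39 (exact permutation p = 0.2) and 2.03 (exact permutation p = 0.171). With 4 against 4 libraries the smallest p that 70 relabellings allow is 0.0286. Without WT 2 every library with the transgenes, at 0.370% to 0.525% of neurons, lay above every other, at 0.245% to 0.339%. No relabelling of those libraries gives a larger rise. In cluster 8 alone they also lay apart without WT 2, at 0.314% to 0.464% against 0.147% to 0.278%. Thinned to 5000 UMIs they overlapped without WT 2, at 0.0720% to 0.157% with the transgenes and 0.120% to 0.184% without. They also overlapped with at least 3 Pvalb UMIs (0.101% to 0.156% against 0.0585% to 0.102%). So did the nuclei with Lhx6 (0.136% to 0.314% against 0.0509% to 0.175%).

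The level of Pvalb (chr15:78191114-78206400) over all GABAergic nuclei, which does not depend on the threshold, was 5.88 and 44.3 CPM in WT, 14.7 and 6.90 CPM in Cnp-/-, 15.6 and 12.8 CPM in 5xFAD, and 14.9 and 24.4 CPM in Cnp-/- 5xFAD. The lowest levels were those of WT 1 and Cnp-/- 2, which had the most GABAergic nuclei (2068 and 1908). The part of that pool's make-up in the level was not tested. Differences were -4.45 CPM for Cnp loss (exact permutation p = 0.83) and -1.02 CPM for 5xFAD (exact permutation p = 0.971). Without WT 2 they turned to 3.77 CPM (exact permutation p = 0.371) and 7.77 CPM (exact permutation p = 0.114). Over the GABAergic nuclei of cluster 8 the same level ran from 29.1 to 51.5 CPM. The median UMIs per Pvalb nucleus were 9745 ± 769 (SD, n = 4) without Cnp and 12391 ± 1572 with it (exact permutation p = 0.0571, adjusted p = 0.457). In cluster 8 alone, a setting added after the data were seen, the difference was -2820 UMIs. Its p was the smallest that the test can give (exact permutation p = 0.0286, not adjusted). Every library without Cnp lay there below every library with it. With at least 3 Pvalb UMIs the difference was reversed, at 1960 UMIs (exact permutation p = 0.8). That reversal rested on Cnp-/- 5xFAD 1, at 28675 UMIs from 5 nuclei. The other libraries without Cnp were at 9157 to 10142.5 UMIs and those with it at 8836.5 to 18105 UMIs.

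**Figure D5:**
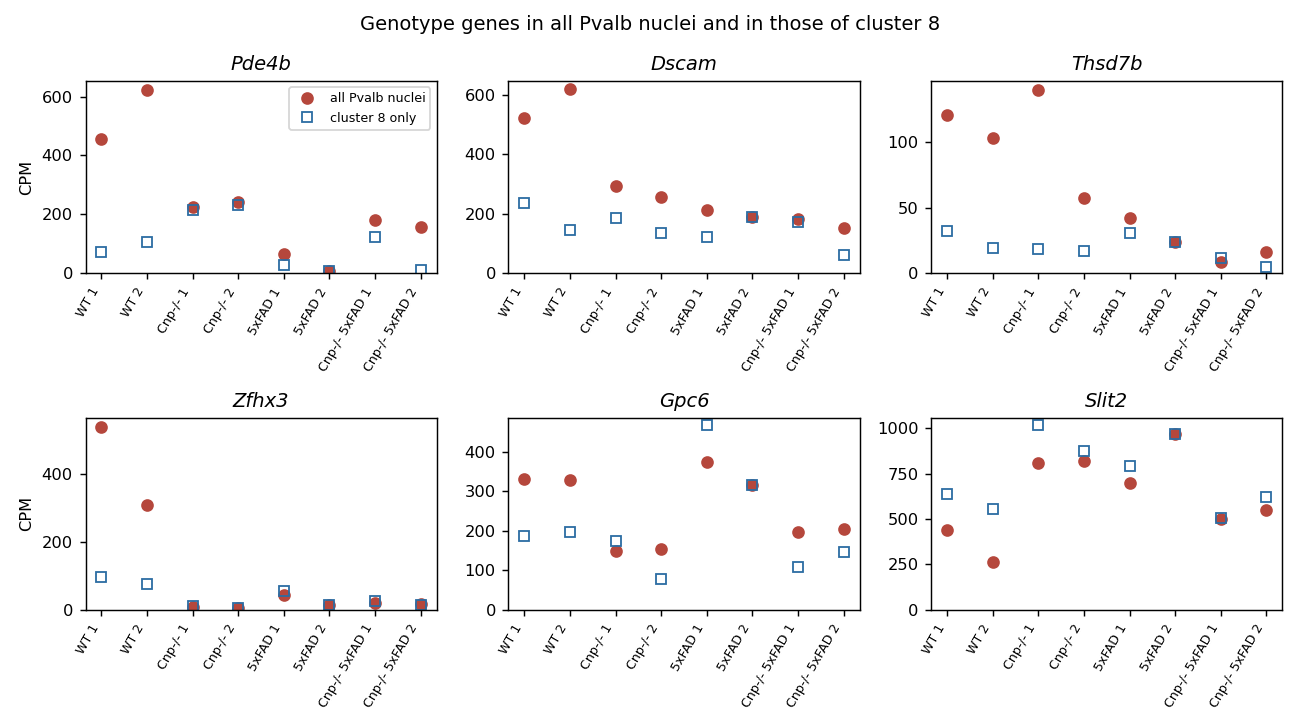
Levels in CPM (y axes) of 6 genes in the 8 libraries (x axes), summed over all Pvalb nuclei (filled circles) and over those of cluster 8 (open squares). Pde4b, Dscam and Zfhx3 are highest in the WT libraries over all Pvalb nuclei and lie far lower there in cluster 8, while Slit2 is high in Cnp-/- and 5xFAD under both.

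Few genes differed between genotypes. For Cnp loss, averaged over mice with and without the transgenes, 2 of 5942 genes passed (0.0337%), with 328 at an unadjusted p under 0.05, while DESeq2 called 3, of which 1 was among the 2. Both genes were lower without Cnp. DESeq2 and the replicate block kept Zfhx3 and lost Gpc6 (adjusted p = 0.116 and 0.0527), and without Cnp-/- 2 or 5xFAD 1 neither of the 2 was called. Zfhx3 (chr8:107942644-108961630), a transcription factor of several inhibitory lineages, was at 541 and 310 CPM in WT, 7.58 and 4.41 CPM in Cnp-/-, 42.3 and 14.4 CPM in 5xFAD, and 19.9 and 15.7 CPM in Cnp-/- 5xFAD. The WT libraries stood far above the rest, and those of 5xFAD overlapped with those of Cnp-/- 5xFAD. Its log2 fold change was -3.34 ± 0.46 (edgeR adjusted p = 0.0084), and -1.94 ± 0.55 in cluster 8 (adjusted p = 0.943), where WT had 96.8 and 74.2 CPM, in each library from 1 nucleus. Without WT 2 it was -3.52 ± 0.42, and with at least 3 Pvalb UMIs it turned to 0.60. Nuclei outside cluster 8 remained in the fit without WT 2, and held 109 of the 121 Zfhx3 UMIs in WT 1.

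Gpc6 (chr14:116925315-117976544), a glypican of the cell surface, was the other. It was at 331 and 328 CPM in WT and 374 and 316 CPM in 5xFAD, against 148 and 154 CPM in Cnp-/- and 196 and 204 CPM in Cnp-/- 5xFAD, so the 4 libraries without Cnp lay below the 4 with it. Of all 5942 genes 90 lay so and 52 the other way. The log2 fold change of Gpc6 was -0.93 ± 0.15 (edgeR adjusted p = 0.034). In cluster 8 it was -1.12 ± 0.22 (adjusted p = 0.103), and without WT 2 it was -0.93 ± 0.18 (adjusted p = 0.0823), of the same size but past the threshold in neither. In cluster 8 as a whole the test called 1 of 4808 genes (0.0208%), the astrocyte gene Gpc5 (5.43), which was not among the 2. Its 49 UMIs in Cnp-/- replicate 1 all came from 1 nucleus and its 49 in replicate 2 from 2 nuclei. Cnp-/- 5xFAD 1 had 63 UMIs from 11 nuclei, Cnp-/- 5xFAD 2 had 0, and the libraries with Cnp had 0 to 3.

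With 5xFAD, averaged over mice with and without Cnp, 14 of 5942 genes passed (0.236%), all lower, with 458 at an unadjusted p under 0.05, and DESeq2 called 12. Pde4b (chr4:102087543-102607259), a phosphodiesterase that degrades cyclic AMP, was at 456 and 623 CPM in WT, 224 and 243 CPM in Cnp-/-, 63.5 and 4.78 CPM in 5xFAD, and 179 and 157 CPM in Cnp-/- 5xFAD. Libraries with the transgenes lay below those without, as for 110 of 5942 genes, with 73 the other way. The log2 fold change of Pde4b was -2.14 ± 0.27 (edgeR adjusted p = 0.0029). Nuclei outside cluster 8 held 93 of the 102 Pde4b UMIs in WT 1, 49 of them in 1 nucleus, and remained in the fit without WT 2. In that fit the fold change of Pde4b was also negative. In cluster 8 it was -2.14 ± 0.45 and did not pass (adjusted p = 0.519), and it rested there on few nuclei, since 34 of 36 UMIs in Cnp-/- 1, 33 of 41 in Cnp-/- 2 and all 9 in WT 1 came from 1 nucleus each. The levels were 72.6 and 105 CPM in WT, 215 and 230 CPM in Cnp-/-, 25.4 and 4.78 CPM in 5xFAD, and 122 and 9.48 CPM in Cnp-/- 5xFAD.

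Dscam (chr16:96590840-97170752), an adhesion molecule of neurite self-avoidance, was lower by -1.10 ± 0.16 (edgeR adjusted p = 0.0057), from 523 and 619 CPM in WT and 292 and 256 CPM in Cnp-/- to 212 and 187 CPM in 5xFAD and 182 and 150 CPM in Cnp-/- 5xFAD. Thsd7b was lower by -2.33 ± 0.34 (adjusted p = 0.0057), from 121 and 104 CPM and 140 and 57.3 CPM to 42.3 and 23.9 CPM and 8.54 and 15.7 CPM in the same order. For both genes no library with the transgenes reached one without, which held for 110 of 5942 genes, and the reverse for 73. Without WT 2 Dscam and Thsd7b were at -1.03 ± 0.18 and -2.39 ± 0.38. Nuclei outside cluster 8 remained in that fit, and held 88 of the 117 Dscam UMIs in WT 1 and 34 of the 37 Thsd7b UMIs in Cnp-/- 1. The part of the kind of nucleus in these differences was not tested. In cluster 8 Dscam stood at -0.28 ± 0.27, and Thsd7b was at most 32.3 CPM in any library there.

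The other genes lower with 5xFAD were the phosphodiesterase Pde1c (-3.18 ± 0.64), the long noncoding RNA Rmst (-3.32 ± 0.51), the transcription factors Meis1 (-4.64 ± 0.80) and Nfia (-2.09 ± 0.38), the ephrin receptor Ephb1 (-2.05 ± 0.34), the adhesion molecule Ncam2 (-0.85 ± 0.17), Dock10 (-1.32 ± 0.21) and 4 genes on the lists of glia. These last were St18 (-2.67 ± 0.49) and Prr5l (-3.04 ± 0.54) of the oligodendrocyte list, Gpc5 (-3.13 ± 0.60) of the astrocyte list and Lhfpl3 (-1.39 ± 0.24) of the oligodendrocyte precursor list. Lhfpl3 was not confined to few nuclei, with UMIs in 9 of the 18 nuclei of 5xFAD 1 and 82 of the 101 of WT 2. Its listing thus does not show that its RNA came from glia. Over all genes 0.236% passed. Some of these sizes rest on few UMIs. Meis1 had 9 and 130 UMIs in WT, 9 and 4 in Cnp-/-, 2 and 3 in 5xFAD, and 0 and 0 in Cnp-/- 5xFAD, so its size is poorly determined. Of the UMIs of these 14 genes 7.64% to 29.3% lay in cluster 8 nuclei, which held 53.0% of all UMIs of the 250. In cluster 8 no gene passed for 5xFAD (0 of 4808, 0%, with 184 at an unadjusted p under 0.05 in edgeR's quasi-likelihood test), and without WT 2 12 passed, 8 of them among the 14.

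For the interaction, which asks whether Cnp loss acted differently with and without the transgenes, 15 of 5942 genes passed (0.252%), 10 with a positive and 5 with a negative value, and DESeq2 called 5. The largest positive values were those of Rorb (6.19 ± 1.05) and Foxp2 (5.56 ± 0.88), which the lists hold as genes of excitatory neurons. Rorb was at 143 and 94.6 CPM in WT, 18.9 and 8.82 CPM in Cnp-/-, 10.6 and 0 CPM in 5xFAD, and 94.0 and 25.0 CPM in Cnp-/- 5xFAD. WT and the double mutant were above both single mutants, but 25 of the 33 Rorb UMIs in Cnp-/- 5xFAD 1 and all 8 in Cnp-/- 5xFAD 2 came from 1 nucleus each. Without WT 2 the value was 6.49 ± 1.04 for Rorb and 5.58 ± 1.14 for Foxp2.

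Slit2 (chr5:47983138-48307733), an axon guidance ligand, had a negative value, -1.95 ± 0.34 (edgeR adjusted p = 0.041). It was at 438 and 263 CPM in WT, 811 and 820 CPM in Cnp-/-, 698 and 966 CPM in 5xFAD, and 501 and 551 CPM in Cnp-/- 5xFAD, with both single mutants above WT and the double mutant. Unlike the genes before it Slit2 had 77.2% of its UMIs in cluster 8 nuclei, where its value was -1.36 ± 0.28 (adjusted p = 0.147), and without WT 2 it was -1.57 ± 0.34 (adjusted p = 0.0543). Galntl6, a glycosyltransferase-like gene with 79.1% of its UMIs there, had the same shape, at -1.41 ± 0.28 (adjusted p = 0.048) over all nuclei and -0.80 ± 0.18 (adjusted p = 0.183) in cluster 8. In cluster 8 the test called 1 of 4808 genes (0.0208%), the NMDA subunit Grin2a (1.98, named after its value was seen), and 294 were at an unadjusted p under 0.05. Without WT 2 it called 11, 6 of them among the 15, but without Cnp-/- 1 or Cnp-/- 2 it called 0 genes and without Cnp-/- 5xFAD 1 it called 2.

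A separate fit of the 24 profiles asked whether the genotype effects in Pvalb nuclei differed from the mean effect in Sst and Vip nuclei. For Cnp loss none of 8126 genes passed (0%), with 398 at an unadjusted p under 0.05 in edgeR's quasi-likelihood test and 0 called by DESeq2. The smallest Sst profiles, of 5 and 8 nuclei, both lack Cnp, which limits what this comparison could call. For 5xFAD 2 passed (0.0246%), Dscam at -1.27 ± 0.20 (edgeR adjusted p = 0.0099) and Thsd7b at -2.26 ± 0.40 (adjusted p = 0.0212), both lower in Pvalb nuclei. Without WT 2 the adjusted p was 0.101 for both, and in cluster 8 the values were -0.46 ± 0.26 and -0.30 ± 0.56, with 0 genes passing in either setting.

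None of the 11 fast-spiking channels tested, the 6 release genes, the 7 energy regulators, the 7 MGE genes, the 11 GABA-A receptor subunits and the 11 glutamate receptors was called for Cnp loss, 5xFAD or the interaction over all 250 nuclei, and in cluster 8 Grin2a was the only one called. Over all genes 0.0337%, 0.236% and 0.252% were called, and in cluster 8 0.0208%, 0% and 0.0208%. At such shares counts of 0 do not set these lists apart from all genes. For Cnp loss their median log2 fold changes were 0.08, -0.12, -0.06, 0.41, 0.19 and -0.01, and for 5xFAD 0.06, 0.01, 0.10, 0.45, 0.16 and 0.18, beside 0.00 and 0.01 over all genes. Sox6 came nearest, at 0.71 ± 0.15 with 5xFAD (edgeR adjusted p = 0.054), and was at 416 and 331 CPM in WT against 686 to 1019 CPM in the other 6 libraries. In cluster 8 it was at 702 and 838 CPM in WT and 799 to 1088 CPM in the others. For Cnp loss Kcnc1 stood at 0.43 ± 0.15 (adjusted p = 0.859), Syt2 at -0.30 ± 0.18 and Esrrg at -0.07 ± 0.15.

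Mouse App was at 0.14 ± 0.15 with 5xFAD (edgeR adjusted p = 0.91) and Thy1, whose promoter drives the transgenes, at -1.16 ± 0.61 (adjusted p = 0.69), so that neither passed. App ran from 362 and 390 CPM in WT through 421 and 415 CPM in Cnp-/- to 406 and 560 CPM in 5xFAD and 347 and 429 CPM in Cnp-/- 5xFAD, with the groups overlapping.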

How the data were processed

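The deposited files held raw UMI counts per gene and nucleus with the authors' metadata for each nucleus. The authors aligned the reads to mm10 with Cell Ranger 6.1.2, removed ambient RNA with CellBender, clustered in Seurat and removed clusters of undefined identity. How doublets were treated and whether intronic reads were counted is not given in the sources used here. The cell type and cluster of a nucleus were taken from the deposited metadata, and no further filter was applied.

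UMIs were summed per library over the Pvalb, Sst and Vip nuclei and tested with edgeR 4.0.16 in R 4.3.3 (quasi-likelihood test, TMM scaling, filterByExpr, Benjamini-Hochberg adjustment, threshold 0.05). Genotype fits had Cnp loss, 5xFAD and their interaction as terms over the 8 libraries, and class fits had the library as a block. The gate genes were left out of every test between classes and stayed in the genotype fits. Shares, the Pvalb level and depth were compared with two-sided exact permutation tests. CPM are UMIs per 1000000 UMIs of the summed nuclei. Thinning drew 5000 UMIs per nucleus. The steps were tested on simulated counts.

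Genes named are those of fixed lists, those past the threshold for genotype, and the 10 widest changes in each direction between classes among genes that moved the same way in every library. The nuclei, lists and tests were chosen with earlier results of these data known. The cluster 8 setting and the lists of cerebellar cell types were added after the data were seen. Alternatives were DESeq2 1.42.0, no filter, a replicate block, leaving out each library, other Pvalb minima, nuclei with Lhx6, nuclei with few glial UMIs, equal numbers of nuclei, thinning and cluster 8. Same-numbered libraries had deviations correlated at -0.102 to 0.151, so the numbers were not taken to pair them. Gene positions are those of GENCODE M21. Some genes of the lists enter the counts but are not reported by name here. Intervals and permutation tests cover the spread between these libraries.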

Additional observations from a re-analysis of the deposited data

Results flagged for a closer look

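In 48 tests for a library far from the others of its group of 4, by Dixon's criterion at 95%, 3 stood out, where chance alone gives about 1 in 20. In WT 2 the Pvalb nuclei were 1.82% of neurons, apart from the other libraries with Cnp and from the other libraries without 5xFAD. Rmst was at 35.3 CPM in Cnp-/- 2, below the other libraries without the transgenes.

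The effect of Cnp loss differed with and without the transgenes in 15 genes by the interaction term (edgeR's quasi-likelihood test, Benjamini-Hochberg adjusted p of 0.034 to 0.048). The positive log2 values were those of Rorb (6.19), Foxp2 (5.56), Zfhx3 (5.23), Grm8 (3.76), Ephb1 (3.53), Pde4b (3.38), Zbtb20 (3.27), Fstl4 (3.02), Rgs6 (2.94) and Plcb4 (1.94). The negative ones were those of Sox5os4 (-2.15), Slit2 (-1.95), Slc44a5 (-1.93), St6galnac5 (-1.81) and Galntl6 (-1.41). None of them was called in cluster 8. The effect of 5xFAD differed between Pvalb nuclei and the other interneurons for Thsd7b (-2.26) and Dscam (-1.27), again not in cluster 8.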

How the results depend on the processing

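Genotype counts depended on the processing, and the causes were not tested. Without a filter on low counts 32 genes were called for Cnp loss in place of 2, 119 for 5xFAD in place of 14, 137 for the interaction in place of 15, and 22 and 92 for the difference from the other interneurons in place of 0 and 2. With at least 3 UMIs of the class gene the counts were 0, 0 and 0, with 334 against Sst nuclei, 801 against Vip nuclei and 5 for the 5xFAD difference. With equal numbers of nuclei they were 0, 3 and 9, with 319 against Sst nuclei and 4 for that difference. With only nuclei that had Lhx6 and no midbrain or hindbrain gene they were 0, 0 and 0. With at most 2 UMIs of glial genes Cnp loss had 0 and 5xFAD 12, of which 7 were among the 14. The interaction had 5 in that setting, which was also DESeq2's count for it. In cluster 8 the counts were 1, 0 and 1, with 0 for the 5xFAD difference.

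Leaving out single libraries gave 0 to 10 genes for Cnp loss, 2 to 94 for 5xFAD, 0 to 93 for the interaction, 769 to 916 against Sst nuclei, 1494 to 1699 against Vip nuclei, 0 to 0 for the Cnp difference and 0 to 16 for the 5xFAD difference. The highest genotype counts came without WT 1 (10, 94, 93 and 16), and without 5xFAD 1 there were 6, 47, 59 and 0. Without Cnp-/- 1 there were 1, 2, 0 and 3, without Cnp-/- 2 0, 13, 0 and 6, without 5xFAD 2 4, 13, 5 and 0, without Cnp-/- 5xFAD 1 4, 28, 2 and 14, and without Cnp-/- 5xFAD 2 2, 15, 23 and 4. Without WT 2 there were 1, 12, 11 and 0. Such fits leave 1 library in a genotype, which is assumed to vary like the others.

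The share of neurons differed by -0.451 to 0.0745 percentage points for Cnp loss and by -0.385 to 0.140 for 5xFAD over these, and that of GABAergic nuclei by -2.18 to 1.39 and -1.54 to 2.03. The Pvalb level differed by -9.04 to 3.77 and -5.04 to 7.77 CPM, and the median depth by -3361 to -2102 and -938 to 605 UMIs. In cluster 8 the 5xFAD share of neurons turned to 0.0792 (0.0569 with Lhx6), the shares of GABAergic nuclei to 0.607 and 1.37 (0.877 with Lhx6 and 1.21 with at least 1 Pvalb UMI for 5xFAD), the level for Cnp loss to 0.642 CPM, and the depth to -472 UMIs for 5xFAD and -2820 for Cnp loss, or 1960 with at least 3 Pvalb UMIs. Zfhx3 turned to 0.60 with at least 3 UMIs, Gpc5 to 0.27 in cluster 8, and with only nuclei that had Lhx6 and no midbrain or hindbrain gene Gpc5 turned to 0.48 and Lhx6 itself against Sst nuclei to 0.32.

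With the replicate number as a block 1, 16 and 18 genes were called for Cnp loss, 5xFAD and the interaction, and relabelling within numbers has a smallest p of 0.0556. Libraries of 15 to 29 nuclei outside WT 2 limit what could be called. Sst profiles of 5 and 8 nuclei limit the comparisons with that class.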

Other observations

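Genes of the axon, node and paranode moved in both directions. Against Sst nuclei 2 of 7 tested were higher and 2 lower (median 0.12), and against Vip nuclei 3 were higher and 1 lower, beside 9.67% higher and 9.49% lower over all genes against Sst nuclei and 15.5% and 14.7% against Vip nuclei. Nfasc, the neurofascin that builds the node and paranode, was higher against Sst nuclei (0.44) and at 0.05 against Vip nuclei, while Ank3, the ankyrin scaffold of the axon initial segment, was lower in both (-0.49 and -0.61). Gad2 was lower in Pvalb than in Sst or Vip profiles in its median, 178 CPM against 341 and 259 CPM, and Gad1 higher, 320 CPM against 187 and 282 CPM. Both genes belong to the gate, so these levels are a description.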
